A study of Arabis alpina with 23 samples.

Results

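GA2OX, GA20OX and GASA4 are 3 gibberellin genes of Arabis alpina, a perennial relative of Arabidopsis. They were chosen by gene identifier from the deposited expression table, as the genes described there as gibberellin 2-oxidase (Aa_G655020), gibberellin 20-oxidase (Aa_G598100) and gibberellin-regulated protein 4 (Aa_G321010). They are 3 of 34220 genes in the table, and all 3 were among the 21414 genes with enough counts to be tested. RNA was sequenced from very young axillary buds (AB), each carrying a single leaf primordium, and from shoot apical meristems (SAM) taken with 1 leaf primordium. All plants were of the accession Pajares, and no group carried a mutation, a transgene or a chemical treatment in the labels. Stage 1 plants were 4 weeks old and stage 2 plants 8 weeks old. Stage 3 followed 4 weeks and stage 4 followed 7 weeks of cold at 4 °C. Each library pooled 120 to 150 buds or meristems, so plants cannot be told apart within a library. The 8 groups had 3 libraries each, apart from AB stage 1 with 2, and 23 libraries were sequenced in all.

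Gibberellins are growth hormones made from ent-kaurene in several oxidation steps. GA20OX enzymes carry out the late steps that lead to the precursors of active gibberellin, GA3OX enzymes make the active forms, and GA2OX enzymes inactivate them. Active gibberellin binds the GID1 receptors and leads to the breakdown of DELLA proteins, which repress growth. GASA genes encode small secreted cysteine-rich peptides, and many of them respond to gibberellin. In Arabidopsis, class I KNOX proteins of the meristem such as STM lower GA20OX transcription, and GA2OX genes are active around the base of the meristem and of leaf primordia.

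Total counts ran from 12.2 to 26.2 megareads per library, and 21824 to 23524 genes were detected in each. The meristem gene STM (Aa_G408930) was found in every group, at group means of 107.3 to 178.3 counts per megaread of scaled library size (CPM) in AB and 131.5 to 209.6 CPM in SAM. WUS, CLV3, CUC2, LAS and RAX1, which mark the stem cell region and the axil boundary, also had counts in every group. Their levels were not all alike in AB and SAM. At stage 1, WUS had a mean of 5.61 CPM in AB against 1.38 CPM in SAM, and RAX1 of 13.2 against 3.73 CPM. CUC2 stood at 11.1 against 16.6 CPM, CLV3 at 1.48 against 1.31 CPM and LAS at 2.75 against 2.94 CPM. WUS, CLV3 and CUC2 kept this order of means at the later stages. The order of RAX1 was reversed at stage 3, at 5.34 CPM in AB against 9.31 CPM in SAM. That of LAS was reversed at stage 4, at 3.51 against 2.03 CPM. The first principal component of all tested genes held 48.4% of the variance. The 3 AB stage 4 libraries lay at 40.3 to 61.5 on it, within the span of the SAM libraries of all stages, 10.2 to 80.2. SAM stage 4 lay at 41.3 to 73.6 and SAM stage 3 at 60.1 to 80.2, whereas the other AB libraries lay between -106 and -46.2.

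All 3 genes were higher in AB than in SAM at stages 1, 2 and 3. GA2OX, which encodes the inactivating enzyme, differed by 31.7, 42.1 and 7.44 times at these stages. GASA4 differed by 3.15, 4.90 and 2.35 times. GA20OX had 523 reads over the AB libraries of stage 1 and 620 over those of stage 2, against 1 and 3 reads over the SAM libraries. At stage 4, after 7 weeks of cold, only GA20OX of the 3 passed the test, at 5.6 times the SAM level. At that stage 3.47% of the tested genes were called in either direction.

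**Figure D1:**
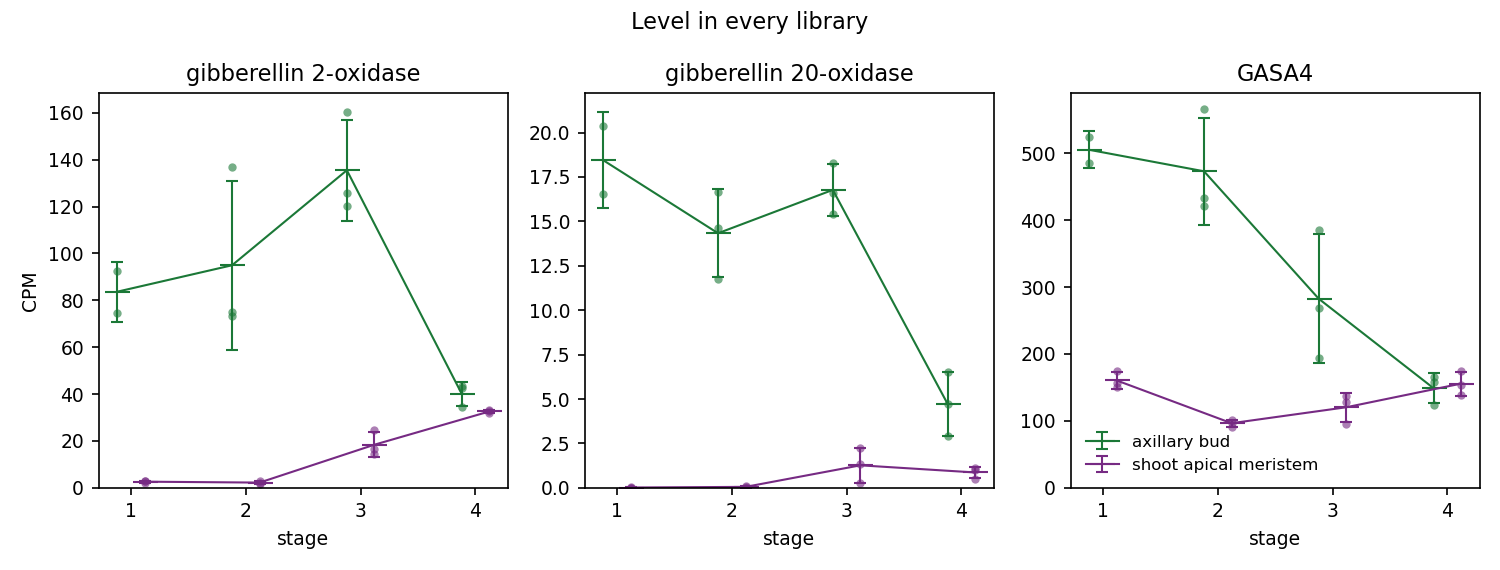
Level of gibberellin 2-oxidase (GA2OX), gibberellin 20-oxidase (GA20OX) and GASA4 in CPM (vertical axes, linear and starting at 0, 1 scale per gene) against stage for axillary buds (green) and shoot apical meristems (purple). Points are single libraries, horizontal marks are group means and bars are SD (n = 3, AB stage 1 n = 2); every bud library lies above every meristem library up to stage 3, and at stage 4 the values of GASA4 overlap.

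GA20OX, the synthesis gene, stood at 20.3 and 16.5 CPM in the AB stage 1 libraries and at 0, 0 and 0.05 CPM in those of SAM. At stage 2 the AB libraries held 16.7, 14.6 and 11.7 CPM and the SAM libraries 0.05, 0.11 and 0 CPM. Every AB library lay above every SAM library at both stages. The AB to SAM ratio of summed reads was 1000 at stage 1 (95% exact conditional binomial interval 179 to 39700, from 523 reads against 1). It was 257 at stage 2 (87.4 to 1250, from 620 reads against 3). These intervals cover counting error only. The adjusted p of edgeR's quasi-likelihood test with Benjamini-Hochberg adjustment, which is used throughout, was 1.09e-08 and 1.77e-08. Of all tested genes, 18.2% were called higher in AB at stage 1 and 19.9% at stage 2, and 14.6% and 17.6% lower, so that a call by itself is common here.

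At stage 3 the 3 AB libraries held 18.3, 15.4 and 16.6 CPM of GA20OX and the SAM libraries 2.22, 1.33 and 0.25 CPM. The SAM libraries were uneven, with 40, 20 and 3 reads. Still, the highest SAM value lay below the lowest AB value, and the difference was 3.63 ± 0.39 on the log2 scale (SE, adjusted p = 8.46e-07, with 22.1% of all genes called higher). At stage 4 the AB libraries held 6.52, 4.71 and 2.93 CPM, the SAM libraries 0.50, 0.99 and 1.10 CPM, and the groups again did not overlap. The log2 difference was 2.49 ± 0.42 (adjusted p = 0.00176), at a stage when 1.35% of all genes were called higher in AB.

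GA2OX stood at 92.7 and 74.7 CPM in AB stage 1 and at 2.76, 2.13 and 2.99 CPM in SAM stage 1. At stage 2 it stood at 137, 74.9 and 73.3 CPM in AB and at 1.97, 3.11 and 1.63 CPM in SAM. The lowest AB library lay more than an order of magnitude above the highest SAM library at both stages. The log2 difference was 4.99 ± 0.31 at stage 1 (adjusted p = 5.58e-09) and 5.39 ± 0.30 at stage 2 (adjusted p = 1.88e-09). At stage 3 the AB libraries held 160, 126 and 120 CPM and the SAM libraries 14.3, 16.4 and 24.5 CPM. The groups did not overlap, and the difference was 2.90 ± 0.24 (adjusted p = 1.46e-07). At stage 4 the AB libraries held 43.5, 42.6 and 34.3 CPM and the SAM libraries 32.7, 33.1 and 31.9 CPM. These values did not overlap, but the difference of 0.30 ± 0.23 did not pass the test (adjusted p = 0.572).

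GASA4, the gibberellin-responsive peptide gene, stood at 485 and 525 CPM in AB stage 1 and at 174, 151 and 156 CPM in SAM stage 1. At stage 2 it stood at 565, 420 and 433 CPM in AB and at 97.6, 101 and 91.0 CPM in SAM. The groups lay apart at both stages, by 1.65 ± 0.21 (adjusted p = 1.05e-05) and 2.29 ± 0.20 (adjusted p = 1.38e-07) on the log2 scale. At stage 3 the AB libraries spread from 385 through 268 to 194 CPM, against 137, 95.6 and 129 CPM in SAM. The 3 AB values still exceeded the 3 SAM values, with a difference of 1.23 ± 0.20 (adjusted p = 8.01e-05). At stage 4 the AB libraries held 158, 124 and 165 CPM and the SAM libraries 154, 139 and 174 CPM. These overlapped, and the difference of -0.07 ± 0.19 did not pass the test (adjusted p = 0.922).

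In pooled tissue, fewer cells of a type and less RNA per cell cannot be told apart. Markers of other cell types also differed between AB and SAM. SUC2 (Aa_G371930), the sucrose carrier of phloem companion cells, had group means of 7.58, 9.72, 5.76 and 0.17 CPM in AB at stages 1 to 4 and of 0.256, 0.292, 0.0851 and 0.631 CPM in SAM. Of 14 tested vascular markers (17 listed), 6, 7, 4 and 0 were higher in AB at stages 1 to 4 and 0, 2, 0 and 1 lower. The shares of all genes called higher were 18.2%, 19.9%, 22.1% and 1.35%, so that 4 of 14 at stage 3 is near that share. Their summed level was 528.5 to 535.8 CPM in AB stage 1 and 449.9 to 474.7 CPM in SAM stage 1. It was 533.3 to 568.4 against 471.6 to 516.6 CPM at stage 2, 519.3 to 541.1 against 468.1 to 506.8 CPM at stage 3, and 478.8 to 488.4 against 497 to 514.7 CPM at stage 4. These sums mostly follow genes listed for the word vascular in their descriptions. Aa_G555490, described as vascular protein, stood at 288.8 CPM in AB stage 1 and 239.3 CPM in SAM stage 1. Aa_G210240 and Aa_G650820, described as vascular plant one zinc finger protein, stood at 68.9 and 48.4 CPM in AB stage 1. In SAM stage 1 they stood at 85.2 and 44.0 CPM. The sums are therefore no measure of vascular content. Between 1 and 4 of the 17 had no read in a given group, and SUC2 was at 0 in no group. Of 21 tested leaf mesophyll markers, 16, 14, 9 and 2 were lower in AB and 0 were higher, when 14.6%, 17.6%, 22.1% and 2.12% of all genes were called lower. The part of these cell types in the differences of the gibberellin genes was not tested.

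**Figure D2:**
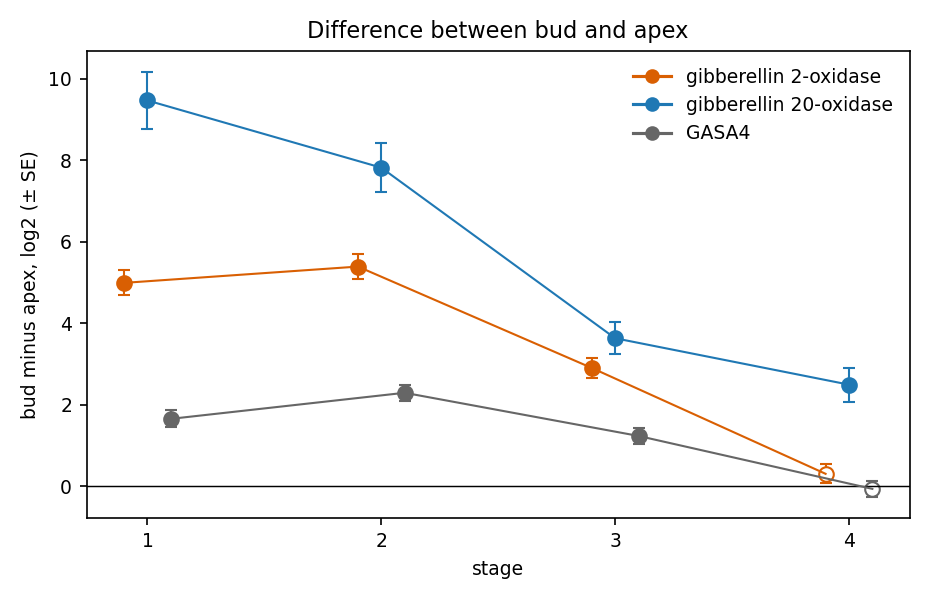
Difference between axillary bud and shoot apical meristem on the log2 scale (vertical axis, bars are SE of the fit) against stage for GA2OX, GA20OX and GASA4. Filled circles passed the test at an adjusted p of 0.05 and open circles did not; all differences are largest at stage 1 or 2 and smallest at stage 4, and the GA20OX values at stages 1 and 2 rest on 1 and 3 SAM reads, so their size depends on the prior count of the fit.

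Over the stages, all 3 genes fell in AB late in the cold, and both oxidases rose in SAM early in the cold. No group of the same age without cold was sequenced, so cold and plant age cannot be told apart in the steps after stage 2. From AB stage 1 to 2, where 1.16% of all genes were called in either direction, none of the 3 passed the test. The log2 changes were 0.18 ± 0.25 for GA2OX (adjusted p = 0.814), -0.36 ± 0.35 for GA20OX (adjusted p = 0.720) and -0.09 ± 0.21 for GASA4 (adjusted p = 0.904). From AB stage 2 to 3, where 12% of all genes were called lower, GASA4 fell by 0.74 ± 0.19 (adjusted p = 0.0101). Without AB stage 2 replicate 1, its highest library, this change was -0.59 with an adjusted p of 0.0547, and with only the compared groups in the fit it was -0.72 with an adjusted p of 0.13. GA2OX changed by 0.51 ± 0.22 (adjusted p = 0.104) and GA20OX by 0.23 ± 0.32 (adjusted p = 0.656). The GA2OX change also depended on AB stage 2 replicate 1, without which it was 0.88 with an adjusted p of 0.0036.

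From AB stage 3 to 4 all 3 genes fell, in a step in which 24.2% of all genes were called lower. GA2OX went from a mean of 135 ± 21.6 CPM to 40.2 ± 5.07 CPM (SD, n = 3), a log2 change of -1.75 ± 0.23 (adjusted p = 1.15e-05). GA20OX went from 16.8 ± 1.45 to 4.72 ± 1.80 CPM, a change of -1.83 ± 0.34 (adjusted p = 2.35e-04). GASA4 went from 282 ± 96.5 to 149 ± 22.1 CPM, a change of -0.92 ± 0.19 (adjusted p = 8.08e-04). None of the 3 stage 4 ranges overlapped its stage 3 range. In the authors' deposited table, the log2 fold changes of this step were -1.75, -1.82 and -0.92 for the 3 genes in the same order.

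In SAM, the step from stage 1 to 2 left GA2OX at 2.63 ± 0.446 and 2.24 ± 0.773 CPM (adjusted p = 0.801) and GA20OX at 1 and 3 reads. GASA4 fell from 160 ± 12 to 96.5 ± 5.08 CPM, a log2 change of -0.73 ± 0.19 (adjusted p = 0.0296), when 3.06% of all genes were called lower. Without any single one of the 6 SAM libraries of stages 1 and 2, this change stayed between -0.77 and -0.67, but its adjusted p was 0.0533 to 0.122. The authors' deposited table gives it as -0.73 with a false discovery rate of 0.00164.

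From SAM stage 2 to 3, across the first 4 weeks of cold, both oxidases rose, in a step in which 11.9% of all genes were called higher. GA2OX reached 18.4 ± 5.38 CPM, a log2 change of 3.01 ± 0.32 (adjusted p = 7.10e-06). GA20OX went from 3 reads in all to 63, a ratio of 25 (95% interval 8.17 to 124, adjusted p = 6.05e-04). GASA4 stood at 120 ± 21.9 CPM and did not pass the test (0.32 ± 0.19, adjusted p = 0.251). From stage 3 to 4, where 5.14% of all genes were called higher, GA2OX rose further to 32.6 ± 0.632 CPM, a change of 0.84 ± 0.24 (adjusted p = 0.0373). Leaving out SAM stage 3 replicate 3 kept this call, and leaving out any other of the 6 SAM libraries of stages 3 and 4 ended it, at 0.68 to 0.85 and adjusted p of 0.0760 to 0.160. GA20OX, at 0.865 ± 0.319 CPM, changed by -0.68 ± 0.48 (adjusted p = 0.421), and by 0.01 without SAM stage 3 replicate 1. GASA4, at 156 ± 17.8 CPM, changed by 0.37 ± 0.19 (adjusted p = 0.259).

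Markers of other cell types also changed over these steps. From AB stage 3 to 4, 0 of the 14 vascular markers rose and 4 fell, and of the 21 leaf mesophyll markers 2 rose and 5 fell. Of all genes 23% rose and 24.2% fell, so that 4 of 14 and 5 of 21 fallen are near that share. From AB stage 2 to 3, 0 vascular markers rose and 3 fell, while 4 leaf markers rose and 0 fell, when 10.2% of all genes rose and 12% fell. From SAM stage 2 to 3, where 11.9% of all genes rose and 12.3% fell, 1 vascular marker rose and 1 fell, and 4 leaf markers rose and 1 fell. From SAM stage 1 to 2, where 4.52% of all genes rose and 3.06% fell, 1 vascular marker rose and 6 leaf markers fell. From SAM stage 3 to 4, where 4.04% of all genes fell, 0 vascular markers changed and 4 leaf markers fell. The part of these cell types in the stage changes of the gibberellin genes was not tested.

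The difference between AB and SAM was itself tested between successive stages. From stage 1 to 2, where 0.0981% of all genes were called, it changed by 0.41 ± 0.47 for GA2OX (adjusted p = 0.939) and by 0.64 ± 0.29 for GASA4 (adjusted p = 0.659). GA20OX had too few SAM reads for a size in this step (adjusted p = 0.935). From stage 2 to 3 the difference became smaller for all 3 genes, when 2% of all genes were called in that direction. The change was -2.50 ± 0.39 for GA2OX (adjusted p = 0.00207) and -1.06 ± 0.27 for GASA4 (adjusted p = 0.0331). For GA20OX the fitted change was -4.19 ± 0.89 (adjusted p = 0.0116), a size that rests on 3 SAM reads at stage 2. By limma on log2(TPM + 1) it was -0.71 and did not pass the test (adjusted p = 0.25). The GASA4 call did not hold when AB stage 2 replicate 1 or 3, AB stage 3 replicate 2, any SAM stage 2 library, or SAM stage 3 replicate 1 or 3 was left out, at -1.12 to -0.91 and adjusted p of 0.0522 to 0.0857.

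From stage 3 to 4 the difference shrank again for GA2OX, by -2.59 ± 0.33 (adjusted p = 3.87e-05), and for GASA4, by -1.30 ± 0.27 (adjusted p = 0.00211). In this step 15.1% of all genes were called in that direction. For GA20OX the change of -1.15 ± 0.59 did not pass the test (adjusted p = 0.153). Without SAM stage 3 replicate 1, the SAM library with most GA20OX reads at that stage, it was -1.83 with an adjusted p of 0.0334, and by limma on log2(TPM + 1) it was -1.52 with an adjusted p of 0.004.

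Ordered by mean CPM, GA2OX ran from AB stage 3 through AB stages 2, 1 and 4 to SAM stages 4, 3, 1 and 2. Ranges of neighbours overlapped between AB stages 3 and 2, AB stages 2 and 1, and SAM stages 1 and 2. GA20OX ran from AB stage 1 through AB stages 3, 2 and 4 to SAM stages 3, 4, 2 and 1, so that every AB group lay above every SAM group. Its neighbours overlapped between AB stages 1 and 3, AB stages 3 and 2, SAM stages 3 and 4, and SAM stages 2 and 1. GASA4 ran from AB stage 1 through AB stages 2 and 3 to SAM stages 1 and 4, AB stage 4 and SAM stages 3 and 2. For it, AB stages 1 and 2 overlapped, and so did each pair of neighbours from SAM stage 1 downwards.

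Levels of different genes are compared here per length, as the authors' TPM, an abundance scaled by transcript length and library total for which the lengths used were not stated. GASA4 was the most abundant of the 3 in every group, with means of 464 to 1630 TPM in AB and 308 to 496 TPM in SAM. GA2OX lay at 40.6 to 141 TPM in AB and 2.32 to 32.8 TPM in SAM, and GA20OX at 4.25 to 17.2 TPM in AB and 0.0163 to 1.11 TPM in SAM. The TPM of the inactivating GA2OX exceeded that of the synthesising GA20OX in all libraries. Their ratio within a library was 5.07 to 5.11 in AB stage 1, 5.76 to 9.21 in AB stage 2, 8.14 to 9.83 in AB stage 3 and 7.49 to 13.2 in AB stage 4. In SAM stage 3 it was 7.21 and 13.9 in the 2 libraries with more than 3 GA20OX reads, the first inside the range of the AB libraries and the second just above it. The remaining library, replicate 3 with 3 GA20OX reads, held 24.3 TPM of GA2OX and 0.219 TPM of GA20OX. Its ratio would lie above every ratio given here but rests on those 3 reads. SAM stage 3 was therefore uneven in this ratio. In SAM stage 4 the ratio was 32.4 to 73.1, above every AB library. No ratio is given for SAM stages 1 and 2, where a library held few or no GA20OX reads. A transcript ratio says nothing of the amount or activity of the enzymes.

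The GA2OX family held 6 genes, 5 described as gibberellin 2-oxidase and 1 (Aa_G410570) as a gibberellin 2-beta-dioxygenase. Within it, GA2OX supplied most of the transcript in AB, with mean shares of the summed TPM of 81.4%, 80.5%, 92.7% and 91.3% at stages 1 to 4. In SAM its share was 9.26% and 8.53% at stages 1 and 2, 66.7% at stage 3 (range 56.9% to 83.5%) and 95.8% at stage 4. The summed level of the family in SAM was 28.4 ± 1.09, 28.2 ± 4.65, 26.9 ± 2.85 and 34.2 ± 0.233 TPM. A second gene of the family, Aa_G418770, held most of it there at first, at 25.2 ± 0.658 and 25.2 ± 5.24 TPM at stages 1 and 2. It then fell to 8.76 ± 3.68 TPM at stage 3 and 1.24 ± 0.102 TPM at stage 4. In the count fit these steps of Aa_G418770 were -1.43 ± 0.28 (adjusted p = 0.00123) and -2.86 ± 0.35 (adjusted p = 5.78e-05), opposite in sign to those of GA2OX. In AB, Aa_G418770 stood at 17.2, 20, 10.6 and 3.79 TPM.

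**Figure D3:**
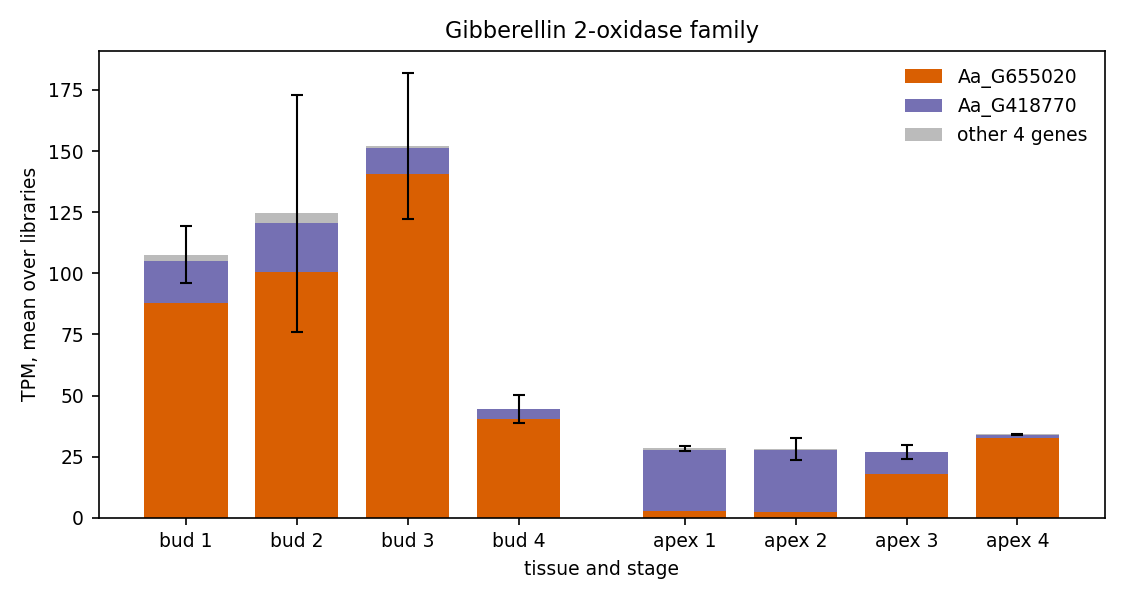
Stacked mean TPM (vertical axis, from 0) of the 6 genes of the gibberellin 2-oxidase family in axillary buds and shoot apical meristems (apex) at stages 1 to 4, with GA2OX (Aa_G655020) in orange, Aa_G418770 in violet and the other 4 genes in grey. Bars are SD of the summed TPM over libraries (n = 3, AB stage 1 n = 2); the apex sum lies between 26.9 and 34.2 TPM while its main gene changes from Aa_G418770 to GA2OX.

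Among 3 genes described as gibberellin 20-oxidase, GA20OX held 96.5%, 96.9%, 97.1% and 84.9% of the summed TPM in AB. In SAM its mean share was 2.09% at stage 1 (range 0% to 6.28%), 17.9% at stage 2 (0% to 33.5%), 67.7% at stage 3 (27.5% to 95.3%) and 35.9% at stage 4 (27.5% to 47.5%), of sums no higher than 2.30 TPM on average. A relative of it, Aa_G91000, had no read in SAM stage 3 and 77 reads in SAM stage 4, at least 18.6 times higher against a floor of 3 reads over the group (adjusted p = 0.00312). Among 8 GASA genes, GASA4 held 75.1%, 66.6%, 50.5% and 70.5% in AB and 68.9%, 50.3%, 52.7% and 70.9% in SAM. The next GASA gene, Aa_G644340, stood at 530, 756, 839 and 192 TPM in AB and 224, 304, 326 and 195 TPM in SAM. It too was higher in AB at stages 1 to 3, by 1.18 ± 0.23, 1.29 ± 0.21 and 1.29 ± 0.21 on the log2 scale (adjusted p = 7.34e-04, 1.25e-04 and 1.24e-04), and fell by 2.09 ± 0.22 from AB stage 3 to 4 (adjusted p = 1.01e-06). Another GASA gene, Aa_G64610, had 101, 83 and 57 reads in AB at stages 1, 2 and 3 and none in SAM, at least 64.5, 34.3 and 19.4 times higher against the same floor (adjusted p = 0.00188, 0.00357 and 0.00815). Its AB libraries were uneven, at 2.39 to 19.4 TPM at stage 2 and 0.601 to 8.72 TPM at stage 3. At stage 4 it had 1 read in AB and none in SAM.

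The wider gibberellin list held 41 genes by description, of which 28 were tested, the 3 genes included. At AB stages 1 to 4, 11, 10, 14 and 3 of the 28 were higher than in SAM and 5, 5, 0 and 0 lower. Without GA2OX, GA20OX and GASA4, 25 genes remained, with 8, 7, 11 and 2 higher and 5, 5, 0 and 0 lower. Their median log2 difference was 0.19, 0.09, 0.17 and -0.10, against -0.0222, -0.004, -0.0063 and 0 over all tested genes. Of all genes, 18.2%, 19.9%, 22.1% and 1.35% were called higher at these stages and 14.6%, 17.6%, 22.1% and 2.12% lower, so that 5 of 25 lower at stages 1 and 2 is close to the share of all genes. At stage 4 the other higher genes were the 2-oxidase gene Aa_G418770 (1.60 ± 0.38, adjusted p = 0.0227) and the 3-oxidase gene Aa_G408940 (1.5 ± 0.4, adjusted p = 0.0421). The first call ended when AB stage 4 replicate 1 or any SAM stage 4 library was left out, and the second when any stage 4 library but SAM replicate 2 was left out (highest adjusted p 0.145 and 0.185). From AB stage 3 to 4, 3 of the 25 rose and 9 fell, with a median of -0.26 against -0.0159 over all genes, of which 23% rose and 24.2% fell. From SAM stage 2 to 3, 3 of the 25 rose and 5 fell, with a median of -0.06 against -0.0044 over all genes, of which 11.9% rose and 12.3% fell.

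In early synthesis, the ent-kaurenoic acid oxidase gene Aa_G235360 was lower in AB at stage 1, by -3.24 ± 0.46 (adjusted p = 1.33e-05), and at stage 2, by -2.84 ± 0.37 (adjusted p = 4.35e-06). It fell by 2.31 ± 0.35 from SAM stage 2 to 3 (adjusted p = 8.98e-05). Its relative Aa_G243610 was higher in AB at stage 3, by 0.97 ± 0.13 (adjusted p = 4.53e-06). Among GA3OX genes, which make the active hormone, Aa_G408940 had 6 reads in AB stage 1 against 99 in SAM, a log2 difference of -3.06 ± 0.64 (adjusted p = 8.44e-04). In AB it rose from 3 reads at stage 2 to 105 at stage 3, a ratio of 34.2 (95% interval 11.4 to 168, adjusted p = 3.29e-05). Its lowest group means were those of AB stages 1 and 2, at 0.211 and 0.0699 CPM. Its model has a coding length of 555 bp, against 1062 bp for the 3-oxidase gene Aa_G312140 and 1074 bp for Aa_G112460. Whether the model is complete was not tested. Another GA3OX gene, Aa_G112460, was higher in AB at stage 3, by 4.03 ± 0.96 (adjusted p = 0.00189, from 68 reads against 4).

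Among GID1 receptors, Aa_G4890 was lower in AB at stage 2, by -0.68 ± 0.11 (adjusted p = 5.69e-05). Aa_G251080 rose from stage 2 to 3 by 0.86 ± 0.12 in AB (adjusted p = 6.70e-05) and by 0.72 ± 0.12 in SAM (adjusted p = 2.03e-04). Of 5 DELLA genes, Aa_G192670 was higher in AB at stages 1, 2 and 3, by 1.67 ± 0.17, 1.82 ± 0.15 and 1.82 ± 0.16 (adjusted p = 1.72e-07, 1.77e-08 and 2.41e-08), and fell by 1.14 ± 0.15 from AB stage 3 to 4 (adjusted p = 3.95e-06). The DELLA gene described as RGA1, Aa_G736670, was lower in AB at stages 1 and 2, by -0.51 ± 0.11 (adjusted p = 9.32e-04) and -0.43 ± 0.10 (adjusted p = 0.00120). A further GA2OX gene, Aa_G6340, was higher in AB at stage 1, by 3.48 ± 0.82 (adjusted p = 0.00271), and at stage 2, by 4.07 ± 0.76 (adjusted p = 3.23e-04). It had 28 reads in AB stage 3 and none in SAM, at least 9.51 times higher against a floor of 3 reads over the group (adjusted p = 0.00338).

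In DELLA turnover and signalling, the SPINDLY-like gene Aa_G216050, named after an Arabidopsis repressor of gibberellin responses, was lower in AB at stage 1, by -0.24 ± 0.08 (adjusted p = 0.0222). This call ended without either AB stage 1 library, without replicate 2 or 3 of SAM stage 1, and also with only the compared groups and by limma (highest adjusted p 0.156). Of the genes described only as gibberellin 20, Aa_G173560 had 59 reads in AB stage 2 against 1 in SAM, a ratio of 73.2 (95% interval 12.6 to 2940, adjusted p = 5.80e-04). At stage 1 it had 14 reads against none, at least 8.95 times higher against a floor of 3 reads (adjusted p = 0.00719). This call ended without AB stage 1 replicate 1 and by limma. Aa_G173560 fell in AB from stage 2 to 3, to 6 reads (-3.26 ± 0.83, adjusted p = 0.0114), a call that ended without AB stage 2 replicate 1. Another of them, Aa_G173570, had 25 reads against 4 at stage 2, a log2 difference of 2.83 ± 0.82 (adjusted p = 0.0103). At stage 3 it had 12 reads against none, at least 4.07 times higher against the same floor (adjusted p = 0.00738). Its stage 1 call, from 8 reads against 1 (adjusted p = 0.0315), ended without AB stage 1 replicate 1, SAM stage 1 replicate 1 or SAM stage 1 replicate 3, and with only the compared groups. Both genes stayed under 3 CPM in every library.

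**Figure D4:**
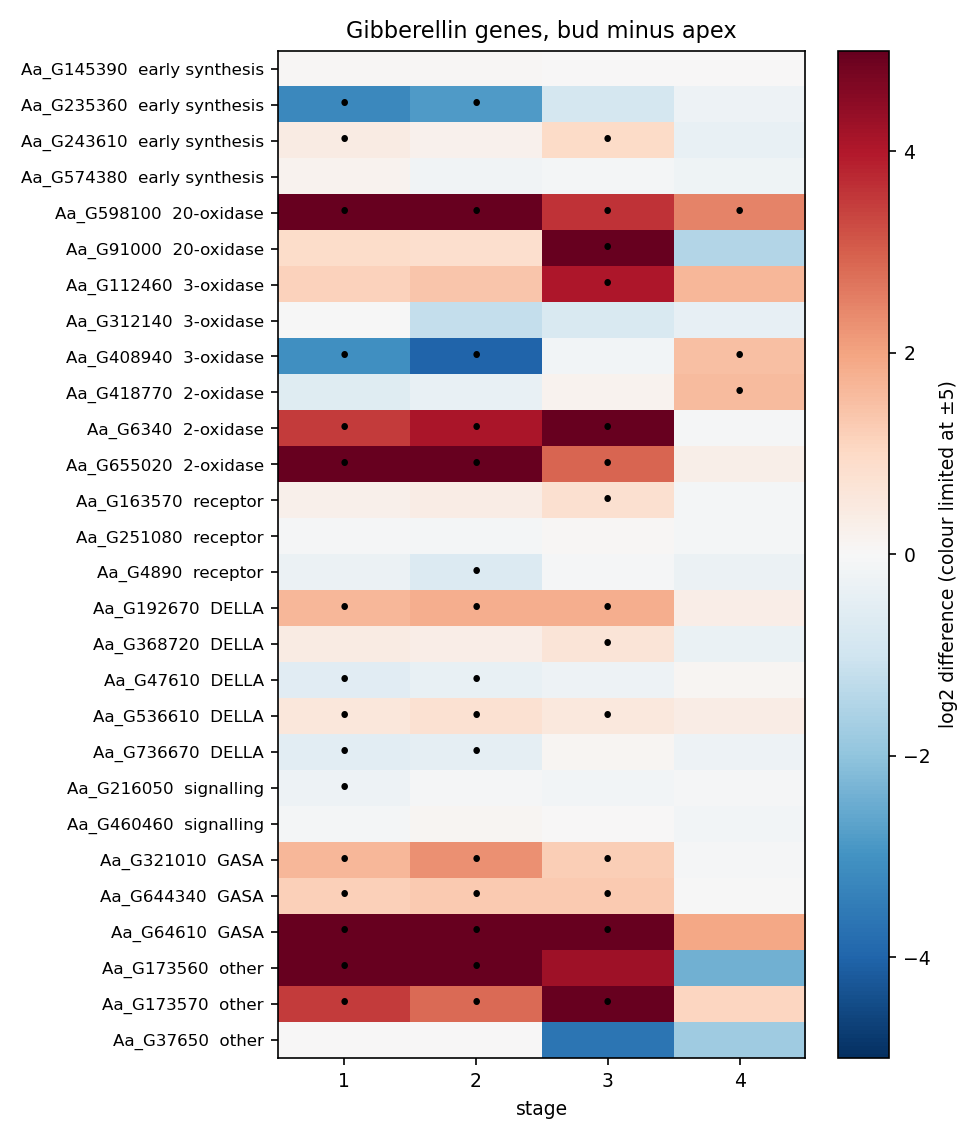
Log2 difference between axillary bud and shoot apical meristem (colour, red higher in bud, limited at 5 in either direction) for the 28 tested gibberellin genes (rows, with their role) at stages 1 to 4 (columns). Dots mark an adjusted p under 0.05; of the 28 genes, 16, 15, 14 and 3 carry a dot at stages 1 to 4, and dark cells of genes with no SAM read depend on the prior count of the fit.

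KNOX genes were listed because class I members act on gibberellin oxidases in Arabidopsis, and 9 of 10 were tested. Of these, 3 were higher in AB at stages 1, 2 and 3 and 1 at stage 4, while 3, 2, 2 and 0 were lower. Over all tested genes the shares at the 4 stages were 18.2%, 19.9%, 22.1% and 1.35% higher and 14.6%, 17.6%, 22.1% and 2.12% lower, so that 2 of 9 is near the share of all genes at stages 2 and 3. Aa_G267330, described as knotted-1-like 3 and thus named like the class II gene KNAT3 of Arabidopsis, was higher in AB by 1.42 ± 0.26, 1.25 ± 0.24 and 1.67 ± 0.25 at stages 1 to 3 (adjusted p = 4.55e-04, 5.81e-04 and 4.35e-05). Aa_G17580, described as knotted-1-like 6, a name of class I, was lower by -0.69 ± 0.10, -0.38 ± 0.09 and -0.41 ± 0.09 (adjusted p = 2.32e-05, 0.00208 and 0.00124). The other genes higher at all 3 stages, named after their values were seen, were Aa_G765980 and Aa_G62430. The first is also described as knotted-1-like 3 and the second as knotted-1-like 6. Aa_G62430 differed by 0.70 ± 0.14, 0.52 ± 0.12 and 0.43 ± 0.13 (adjusted p = 5.09e-04, 0.00243 and 0.00865), opposite in sign to Aa_G17580. Those lower were Aa_G324900, also described as knotted-1-like 3, at stage 1, the KNATM gene Aa_G777300 at stage 1 and Aa_G90040 at stages 2 and 3. Aa_G777300 was the gene higher at stage 4. STM did not pass the test at stages 1 to 3 (-0.29 ± 0.13, -0.28 ± 0.12 and -0.28 ± 0.12, adjusted p = 0.0912, 0.0616 and 0.0552).

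Over the 23 libraries, which fall into 8 groups that all the genes share, the log2 CPM of GA2OX and GA20OX had a Pearson r of 0.937, GA2OX and GASA4 one of 0.708, and GA20OX and GASA4 one of 0.760. These are descriptions with no test. The genes most like GA2OX were a peptidase M16 gene (Aa_G145740, r = 0.975), a seed maturation LEA4 gene (Aa_G386370, r = 0.970) and an endo-beta-mannosidase gene (Aa_G43820, r = 0.961). The peptidase gene ranged only from 82.3 to 151 CPM in group means, whereas the LEA4 gene ranged from 0.238 CPM in SAM stage 1 to 222 CPM in AB stage 3. Those most like GA20OX were a salicylic acid carboxyl methyltransferase-like gene (Aa_G216530, r = 0.976), a gene described as AMP dependent (Aa_G41810, r = 0.963) and a nicotianamine synthase gene (Aa_G356880, r = 0.948). Aa_G216530 stood at 23.2, 14.4, 18.5 and 5.74 CPM in AB and at most at 1.5 CPM in SAM. Those most like GASA4 were a PI-PLC X domain gene (Aa_G590100, r = 0.964), an auxin-inducible IAA2 gene (Aa_G479690, r = 0.953) and a dynein light chain gene (Aa_G508970, r = 0.948).

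On the version 5 assembly, GA2OX lies on the plus strand of chromosome 1 from 27425447 to 27427472, with 3 exons and a coding length of 1005 bp. GA20OX lies on the minus strand of chromosome 8 from 31593904 to 31595268, with 3 exons and a coding length of 1128 bp, and its model carries an alias that names an Arabidopsis locus, At5g51810, known as GA20OX2. GASA4 lies on the plus strand of chromosome 8 from 11414422 to 11415485, with 4 exons and a coding length of 327 bp. Each model was placed at 1 locus, and no annotated gene overlaps any of them. Neither oxidase had a tested neighbour that differed between AB and SAM. The phosphoglucomutase gene 53236 bp from GA20OX (Aa_G348270) had differences of -0.09 to -0.05, and the gene 28892 bp from GA2OX (Aa_G248820) of -0.42 to -0.10. Beside GASA4, the vacuolar amino acid transporter gene 1918 bp away (Aa_G321020) was higher in AB at stage 1, by 2.97 ± 0.72 (adjusted p = 0.00313), and at stage 3, from 22 reads against 3 (adjusted p = 0.00898). Its group means were only 0.0683 to 0.917 CPM. The ribosomal L27 family gene 3454 bp on the other side (Aa_G321000) differed at stage 3 by -0.28 ± 0.09 (adjusted p = 0.020), a call that ended when AB stage 3 replicate 1, SAM stage 3 replicate 1 or SAM stage 3 replicate 2 was left out (highest adjusted p 0.136).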

How the data were processed

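The authors' deposited table gives total mapped reads per gene and library, which are counts per the file headers, and TPM per library computed by the authors. The authors' own log2 fold changes, with a false discovery rate p-value each, were read for 2 of their comparisons, and 46 columns of RPKM and CPM were not used. Libraries were sequenced as 150 bp single-end reads, per the labels' protocols. The submitters' processing notes name FastQC. An aligner, a counter and a strand setting are not given in the sources used here, and antisense transcripts therefore cannot be told apart.

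The counts went into edgeR 4.0.16 (R 4.3.3), with filterByExpr at a minimum count of 10 and a minimum total of 15, TMM scaling, and a model of all 23 libraries with a mean for each of the 8 groups. The quasi-likelihood F test was adjusted by Benjamini-Hochberg over 21414 genes in each of 13 comparisons at a threshold of 0.05. SE was derived from the change and the F statistic. Alternatives were RLE size factors, DESeq2 1.42.0, no filter, compared groups only, a replicate block, limma 3.58.1 on log2(TPM + 1), and leaving out each library. The labels number replicates but do not say what a number marks. Deviations from group means were correlated between same-numbered libraries. The correlation was over 0.1 in every pair for AB against SAM at stage 2 (0.155 to 0.254) and stage 3 (0.134 to 0.190). The reported fit used no pairing, and the replicate block was run as an alternative only. The test was tried on simulated data. Correlations used log2 CPM with a prior count of 2. Intervals are 95% and cover counting error only. The floor is 3 counts over the group without reads. Folds against the floor take the reads of the other group as observed, without their counting error, and are no confidence bounds.

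The genes and lists were chosen with earlier results of these data known. Lists came from words in the descriptions, so a name may belong to a close relative. From the gibberellin list of 47 matches, 6 descriptions of other proteins were left out. Besides the 3 genes, the text names per role the 2 genes with the smallest adjusted p, the 3 genes most like each of the 3 by Pearson r, neighbouring genes and markers. No sequence is given.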

Additional observations from a re-analysis of the deposited data

Results flagged for a closer look

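The change of the AB minus SAM difference between successive stages was itself past the test for 5 results, all negative on the log2 scale. From stage 2 to 3 it was -2.50 for GA2OX (adjusted p = 0.00207 by edgeR's quasi-likelihood test), -4.19 for GA20OX (adjusted p = 0.0116) and -1.06 for GASA4 (adjusted p = 0.0331). From stage 3 to 4 it was -2.59 for GA2OX (adjusted p = 3.87e-05) and -1.30 for GASA4 (adjusted p = 0.00211). In the earlier step the SAM libraries rose in both oxidases. GASA4 instead fell in AB (-0.74, adjusted p = 0.0101) and had no call in SAM (0.32, adjusted p = 0.251). In the later step the AB libraries fell in all 3 genes, and GA2OX also rose in SAM (0.84, adjusted p = 0.0373). The calls of GASA4 in AB in the earlier step and of GA2OX in SAM in the later step ended under some alternatives. The GA20OX change of the difference rests on 3 reads in SAM stage 2, and by limma on log2(TPM + 1) it was -0.71 and did not pass the test (adjusted p = 0.25). The GASA4 change of the difference from stage 2 to 3 lost its call under 10 of 18 alternatives, with a highest adjusted p of 0.127.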

How the results depend on the processing

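The differences between AB and SAM at stages 1 to 3 kept their direction and call for GA2OX, GA20OX and GASA4 under every alternative run. By limma on log2(TPM + 1), the GA20OX change of the difference was -0.71 from stage 2 to 3 (adjusted p = 0.25) and -1.52 from stage 3 to 4 (adjusted p = 0.004). Without a filter on low counts, GA2OX in SAM from stage 3 to 4 was 0.86 (adjusted p = 0.0506) and the GASA4 change of the difference from stage 2 to 3 was -1.03 (adjusted p = 0.0561). With compared groups only, the latter was -1.02 (adjusted p = 0.127) and GASA4 from AB stage 2 to 3 was -0.72 (adjusted p = 0.13). The causes were not tested.

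For counts of called genes, AB against SAM at stage 4 gave 743 in the fit reported, 1140 with DESeq2 and 1385 with compared groups only. AB stage 1 to 2 gave 249, and 405, 144 and 407 with DESeq2, compared groups only and limma. AB stage 2 to 3 gave 4764, and 2796 with compared groups only. The change of the difference from stage 1 to 2 gave 21, and 117, 6, 38 and 69 with DESeq2, compared groups only, the replicate block and limma. From stage 2 to 3 it gave 997, and 1574 with DESeq2.

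Leaving out single libraries, the counts ranged from 4294 to 6622 (AB against SAM, stage 1), 373 to 587 (stage 4), 29 to 232 (AB stage 1 to 2), 537 to 1744 (SAM stage 1 to 2), 1054 to 1847 (SAM stage 3 to 4), 7 to 96 (change of the difference, stage 1 to 2) and 563 to 1278 (stage 2 to 3). GA2OX ranged from -0.18 to 0.35 in AB stage 1 to 2 (-0.18 without AB stage 2 replicate 1), 0.36 to 0.88 in AB stage 2 to 3 and 0.68 to 1.09 in SAM stage 3 to 4. GA20OX ranged from -1.10 to 0.01 in SAM stage 3 to 4 (0.01 without SAM stage 3 replicate 1), and its change of the difference from stage 3 to 4 from -1.83 to -0.73. GASA4 ranged from -0.15 to 0.05 at stage 4 (0.05 without AB stage 4 replicate 2, 0.02 without SAM stage 4 replicate 3), -1.02 to -0.53 in AB stage 2 to 3, -0.77 to -0.67 in SAM stage 1 to 2, and -1.35 to -0.85 for the change of the difference from stage 2 to 3.

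Same-numbered libraries deviated together in AB against SAM at stages 2 and 3; in the other 8 of 10 comparisons the numbers were not shown to pair them, and over all 28 pairs the correlation ran from -0.368 to 0.254. The replicate block changed no call of the 3 genes, and of the counts it moved the 21 above, to 38, by over 1.5 times and no other. That block fits an effect per replicate number shared by all groups, so it cannot show what pairing within single stages would change. Of 70 calls of other named genes, 55 held under every alternative and 0 reversed. The order of groups by TPM was that by CPM for all 3 genes. Of the 3 genes most like GA2OX, 1 was among the 3 by Spearman's rho, against 2 for GA20OX and 2 for GASA4. Keeping the 6 other descriptions in the gibberellin list, an alternative chosen after seeing the data, left its counts within 1.5 times. Low reads limit GA20OX in SAM.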
